A study of Mus musculus with 6 samples.

Results

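The 10 genes of purinergic and adenosine signalling described here were measured in RNA of the cervical spinal cord: the ATP-gated channels P2rx3, P2rx4, P2rx5, P2rx6 and P2rx7, the nucleotide receptors P2ry1, P2ry6 and P2ry14, the ectonucleotidase Entpd1 and the adenosine receptor Adora1. They were taken by mouse symbol from the 54532 Ensembl genes of each library, and all 10 were found and tested. The libraries came from 6 C57BL/6 mice. Of these, 3 had allergic contact dermatitis (ACD), and the other 3 were controls. The allergen was SADBE, squaric acid dibutylester, which sensitises skin on contact. By the treatment protocol, shaved abdominal skin received 20 µl of the allergen at 1% in acetone on 3 days, and 5 days later the ACD mice had the same dose on the nape on 3 further days while controls had acetone. Whether controls were sensitised on the abdomen is not clear from the labels, which give no age, sex or day of dissection, so a difference in handling cannot be told apart from ACD. Levels are given in FPKM, which corrects fragment numbers for exon length and library size, as mean ± SD over the 3 mice of a group.

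Cells release ATP and other nucleotides when they are active or damaged. P2X receptors are cation channels that ATP opens, and P2Y receptors are G protein-coupled receptors for ATP, ADP, UDP or UDP-sugars. Enzymes on the cell surface cut ATP down to AMP and then to adenosine, which acts on its own G protein-coupled receptors. In the dorsal horn, nucleotides from afferents and glia are known to raise the excitability of pain and itch circuits, and adenosine acting on its inhibitory receptor dampens them.

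The library size used in the FPKM, read from the steps between low values, was 16916595 to 18583984 in control and 17346309 to 20245564 in ACD. Reads recovered from the FPKM summed to 16517300 to 18915351 in control and 18525477 to 21487887 in ACD libraries. Since these sums reached 1.07 times that library size (ACD 1), it is not a plain total of reads. Markers of the labelled tissue were high in every library, among them the myelin gene Mbp at 1892 to 3369 FPKM and the synaptic gene Snap25 at 324 to 381 FPKM. Genes above 0 FPKM numbered 24982 to 25870 in control and 23511 to 24194 in ACD libraries. Libraries correlated at 0.947 to 0.955 within control, 0.944 to 0.956 between groups and 0.972 to 0.974 within ACD. Of 21369 genes tested with limma, 386 were higher (1.81%) and 541 lower (2.53%) in ACD at an adjusted p of 0.05, together 4.34% of the genes tested. One library stood apart in a list that bears on a receptor below: the summed FPKM of 8 skeletal muscle genes was 4.29 to 29.7 in controls, highest in control 2, and 1.86 to 2.86 in ACD.

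In the control cord the 10 genes spanned about 2 orders of level. Adora1, the high-affinity inhibitory adenosine receptor, was the highest at 33.5 ± 3.04 FPKM, above 93.7% of the genes tested. It was followed by P2rx5 at 7.06 ± 0.720, P2ry1 at 5.08 ± 0.380 and P2rx6 at 4.04 ± 0.411 FPKM. Entpd1 at 3.05 ± 0.375, P2rx7 at 2.87 ± 0.334 and P2rx4 at 2.66 ± 0.252 FPKM came next and lay close together. The lowest were P2rx3 at 0.787 ± 0.0413, P2ry6 at 0.711 ± 0.322 and P2ry14 at 0.330 ± 0.0924 FPKM, the last of them above 18.1% of the genes tested. Of the 9 pairs of neighbours in this order, 5 had control values that did not overlap. The other 4 pairs overlapped: Entpd1 with P2rx7, P2rx7 with P2rx4, P2rx3 with P2ry6, and P2ry6 with P2ry14. Between P2rx4 and P2rx3 lay a gap, since the lowest control value of P2rx4 was 2.49 and the highest of P2rx3 was 0.827 FPKM.

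**Figure D1:**
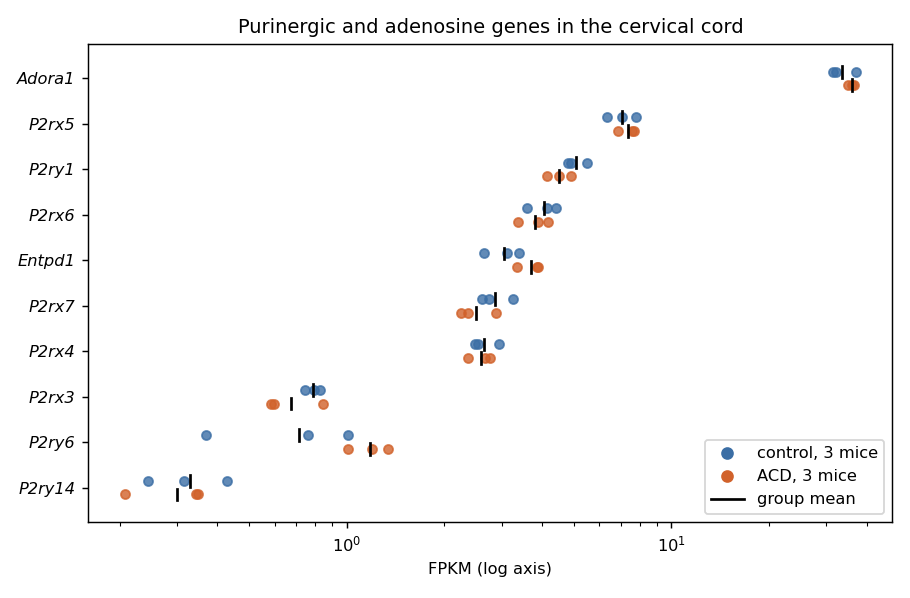
FPKM (log axis) of the 10 genes, ordered by control mean, with 1 point per mouse and black ticks for group means. Adora1 stands alone above 31 FPKM, 6 genes lie between about 2 and 8 FPKM, and P2rx3, P2ry6 and P2ry14 lie lowest.

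ACD was then compared with control, which asks whether this signalling system differs in the cord segments that supply the inflamed skin. None of the 10 genes passed, 0 higher beside 1.81% of all genes and 0 lower beside 2.53%, together 4.34%. At an unadjusted p of 0.05 limma also counted 0 of 10, against 22.3% of all genes. With voom, the count-based variant of limma, on the reads recovered from the FPKM, 0 of 10 passed after adjustment, against 7.96% of all genes, and 2 of 10 (P2ry6 and Entpd1) had an unadjusted p under 0.05, against 24.1% of all genes. The median log2 fold change of the 10 was -0.06, beside -0.01 over all genes tested. In 7 of the 10 the 95% interval of the difference, unadjusted, lay within a 1.5-fold change either way, as it did for 48.8% of all genes. For P2rx3, P2ry6 and P2ry14, the 3 with the fewest reads, it did not, so a change of that size was not excluded at this depth. Because the tissue was bulk, fewer cells of a type and less RNA per cell cannot be told apart.

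**Figure D2:**
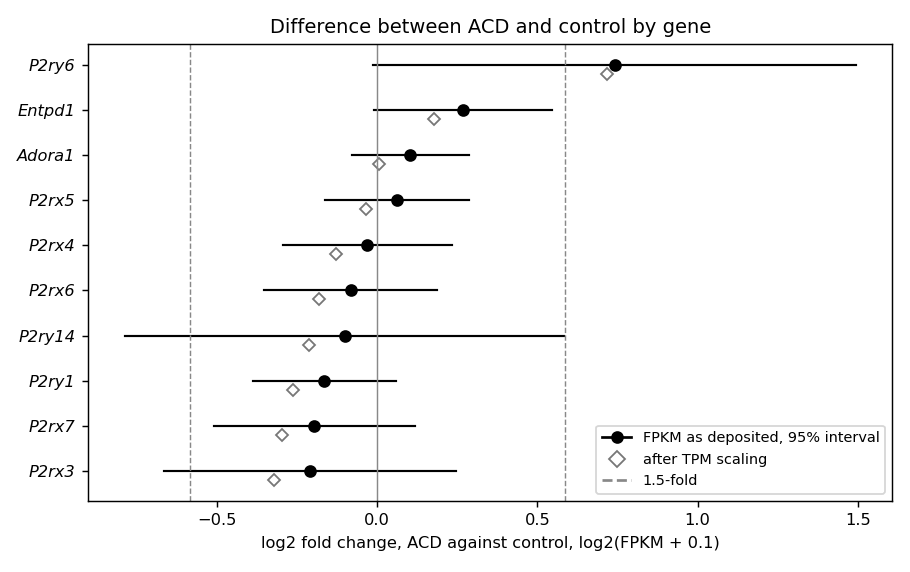
Log2 fold change of ACD against control on the log2(FPKM + 0.1) scale, with 95% intervals, and open diamonds for the same value after TPM scaling. Every interval includes 0; those of P2ry6, P2ry14 and P2rx3 reach beyond the dashed 1.5-fold lines.

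P2rx3, the channel of fine sensory afferents, is on chromosome 2 at 84998583 to 85037462 (GENCODE M21 on GRCm38, as for all coordinates here). It read 0.827, 0.791 and 0.744 FPKM in controls 1 to 3 and 0.599, 0.584 and 0.843 FPKM in ACD 1 to 3, from 29 to 43 reads a library. ACD 1 and 2 lay below all controls and ACD 3 above them, so the groups overlapped. The log2 fold change was -0.21 (95% interval -0.66 to 0.25, adjusted p = 0.565). Of 10 listed genes of primary sensory neurons, 5 were too low to be tested in the same libraries. Among these, Mrgprd was listed at 0 in all 6. Scn10a, the sodium channel of nociceptors, was at 0.00724 to 0.117 FPKM, highest in ACD 3. The 5 that were tested included Pou4f1 at 1.34 to 2.26 and Calca at 15.7 to 33.3 FPKM. The part of afferents in the values of P2rx3 was not tested.

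P2rx7 and P2rx4 are neighbours on chromosome 5, at 122643911 to 122691432 and 122707544 to 122729738, with 16.1 kb between them. P2rx7 opens at high ATP and is known in microglia as a trigger of the inflammasome. Its values were 2.61, 2.74 and 3.25 FPKM in controls and 2.88, 2.36 and 2.24 FPKM in ACD. ACD 2 and 3 were the lowest of the 6, while ACD 1 lay among the controls. The log2 fold change of P2rx7 was -0.20 (interval -0.51 to 0.12, adjusted p = 0.437). P2rx4, the channel that spinal microglia are known to raise after nerve injury, had 2.95, 2.54 and 2.49 FPKM in controls and 2.66, 2.36 and 2.77 FPKM in ACD. Its groups were interleaved, with a log2 fold change of -0.03 (interval -0.29 to 0.23, adjusted p = 0.8998). The interval of P2rx4 corresponds to 0.816 to 1.17 times the control level.

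P2rx5, on chromosome 11 at 73160421 to 73172685, was the highest of the P2X genes. It was at 7.06, 6.34 and 7.78 FPKM in controls and 7.58, 6.83 and 7.65 FPKM in ACD, so all ACD values lay within the control range. Its log2 fold change of 0.06 (interval -0.16 to 0.29, adjusted p = 0.747) became -0.04 after TPM scaling. P2rx6, a subunit that works mainly in channels shared with other P2X subunits and was also described in skeletal muscle, lies on chromosome 16 at 17561885 to 17577800. Controls had 3.596, 4.135 and 4.402 FPKM and ACD 3.896, 4.167 and 3.380 FPKM, again overlapping, with a log2 fold change of -0.08 (interval -0.35 to 0.19, adjusted p = 0.714). Control 2, where the muscle gene Acta1 was at 8.23 FPKM against 0.534 to 1.89 in the other libraries, had 4.135 FPKM of P2rx6. Without control 2 the log2 fold change of P2rx6 was -0.06. The part of muscle in the values of P2rx6 was not tested. Of the exon bases of P2rx6, 13.9% are shared with Slc7a4 on the opposite strand, at 3.98 FPKM, and whether counting used strand is not given in the sources used here. Such overlaps also covered 1.83% of P2rx3 (Ssrp1, at 16.6 FPKM) and 23.1% of P2ry1 (Gm37035, at 0.107 FPKM). For Adora1 the share was 20.1% (Mybph, at 0.107 FPKM).

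Among the P2Y receptors, P2ry1, a receptor for ADP on chromosome 3 at 61002795 to 61008982, was at 5.51, 4.80 and 4.92 FPKM in controls. In ACD it was at 4.15, 4.90 and 4.51 FPKM. ACD 1 and 3 lay below all controls and ACD 2 between them. The log2 fold change was -0.16 (interval -0.39 to 0.06, adjusted p = 0.356). P2ry14, the receptor for UDP-glucose, is on the same chromosome at 59113855 to 59153618. It was at 0.315, 0.428 and 0.245 FPKM in controls and 0.344, 0.348 and 0.208 FPKM in ACD, from 42 to 88 reads. With a log2 fold change of -0.10 and an interval of -0.79 to 0.58 (adjusted p = 0.869), a 1.5-fold fall of this gene was not excluded.

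P2ry6, a receptor for UDP that microglia use in phagocytosis, had the smallest p of the 10. It lies on chromosome 7 at 100937630 to 100974649. Controls had 0.369, 1.006 and 0.759 FPKM, from 18, 54 and 38 reads, and ACD had 1.198, 1.009 and 1.344 FPKM, from 60, 59 and 71 reads. The groups did not overlap, as in 28.6% of all genes tested, but only just: ACD 2 at 1.009 lay above control 2 at 1.006 FPKM. The log2 fold change was 0.74 (SE 0.32, interval -0.01 to 1.49, unadjusted p = 0.0528, adjusted p = 0.230). Control 1 weighed heavily, and without it the value was 0.39 (adjusted p = 0.356), whereas without control 2 it was 1.01 (adjusted p = 0.131). P2ry6 was the only one of the 10 whose groups did not overlap.

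Entpd1 encodes CD39, the enzyme that cuts ATP and ADP to AMP on microglia, vessels and leukocytes, and lies on chromosome 19 at 40612366 to 40741602. It was at 3.13, 3.38 and 2.65 FPKM in controls and 3.84, 3.88 and 3.34 FPKM in ACD. ACD 1 and 2 lay above all controls, and ACD 3 lay just under control 2. The log2 fold change was 0.27 (SE 0.12, interval -0.01 to 0.55, unadjusted p = 0.0558, adjusted p = 0.236), or 1.21 times the control level. TPM scaling, which moved the median of all genes from -0.01 to -0.10, brought it to 0.18 (adjusted p = 0.403).

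Adora1, on chromosome 1 at 134199223 to 134235431, rested on 3072 to 4104 reads a library and had the narrowest interval of the 10. Its values were 31.4, 32.1 and 37.0 FPKM in controls and 36.6, 35.0 and 36.1 FPKM in ACD. All 3 ACD values lay above controls 1 and 2 and below control 3. The log2 fold change was 0.10 (SE 0.08, interval -0.08 to 0.29, adjusted p = 0.488), an interval of 0.947 to 1.22 times the control level, and it was 0.01 after TPM scaling.

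The make-up of each receptor family was set out as shares of its summed FPKM. P2rx5 held 40.02% ± 1.69 of the P2X signal in controls and 42.7% ± 1.44 in ACD. P2rx6 held 23.0% ± 2.05 and 22.2% ± 2.90, P2rx7 16.3% ± 1.04 and 14.5% ± 1.54, and P2rx4 15.1% ± 1.94 and 15.1% ± 0.869. P2rx3 held 4.49% ± 0.479 of the P2X signal in controls and 3.93% ± 0.833 in ACD. P2rx1 and P2rx2, the family's other channels, each held under 2% in every library. P2rx2 averaged under 0.1 FPKM and was not tested, and P2rx1 had a log2 fold change of 0.57 (adjusted p = 0.466). Among P2Y receptors the microglial receptor P2ry12 held most, 49.3% ± 5.22 in controls and 50.7% ± 2.34 in ACD. P2ry1 followed at 25.3% ± 5.23 and 22.5% ± 1.27, and P2ry13 at 18.3% ± 1.98 and 16.9% ± 1.13. P2ry6 took 3.39% ± 1.21 in controls and 5.92% ± 1.07 in ACD, and P2ry14 took 1.59% ± 0.240 and 1.49% ± 0.365. Adora1 took 85.3% ± 3.40 of the adenosine receptor signal in controls and 84.2% ± 1.60 in ACD. Summed over a family the FPKM was 17.6 ± 1.163 and 17.2 ± 0.728 for P2X, 20.5 ± 3.44 and 20.1 ± 0.887 for P2Y, and 39.3 ± 3.47 and 42.6 ± 1.71 for adenosine receptors, in each case with overlapping groups.

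**Figure D3:**
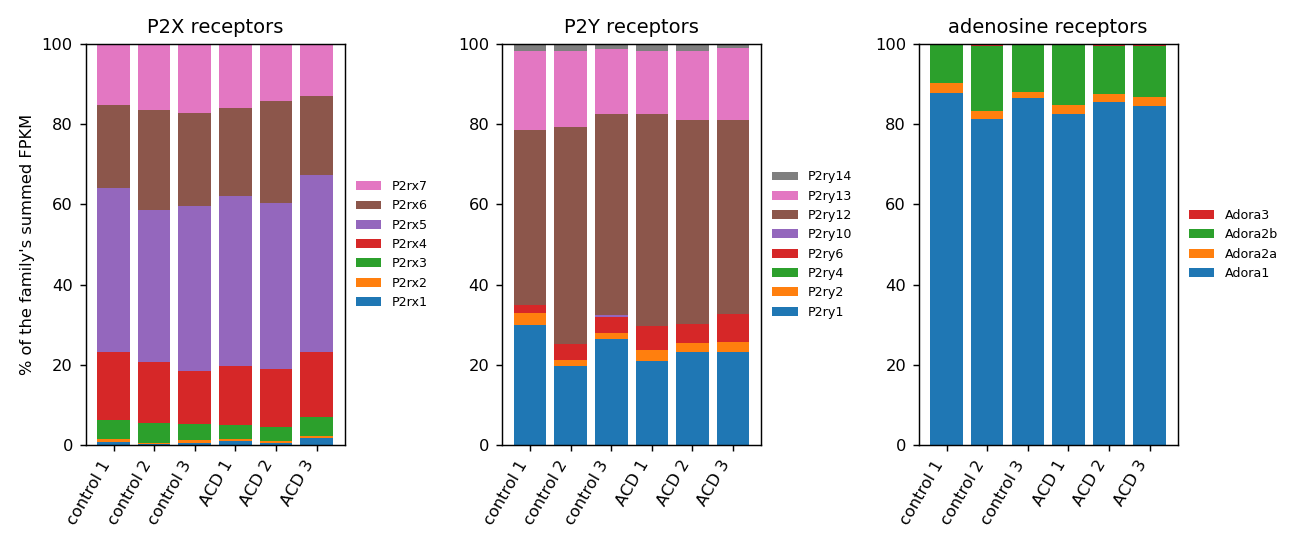
Share (%) of each receptor in the summed FPKM of its family, 1 bar per library. P2rx5 is the largest P2X share, P2ry12 the largest P2Y share and Adora1 over 80% of the adenosine receptor signal in all 6 libraries.

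The rest of the pathway was read from 8 lists, whose 71 other genes included 61 that were tested. Of these 61, 3 rose, none fell and 58 did not pass, or 4.92% called beside 4.34% of all genes. At an unadjusted p of 0.05 the count was 12, or 19.7%, beside 22.3% of all genes. Their median log2 fold change was 0.13.

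In the list of adenosine uptake and clearance 1 of 11 tested genes rose, beside 1.81% of all genes. It was Ahcy, the enzyme that splits S-adenosylhomocysteine into adenosine and homocysteine. It had 9.34, 7.75 and 8.92 FPKM in controls and 11.6, 11.9 and 11.1 FPKM in ACD (log2 fold change 0.41, SE 0.09, adjusted p = 0.0467). In the list of effectors downstream of P2rx4 and P2rx7, 2 of 13 rose, beside 1.81% of all genes. They were Bdnf and Tmem176b. Bdnf, the neurotrophin that links microglial P2rx4 to pain circuits and that neurons also make, had 1.26, 1.23 and 1.23 FPKM in controls and 1.81, 2.06 and 1.77 FPKM in ACD (0.56, SE 0.12, adjusted p = 0.0494). Tmem176b, an intracellular cation channel known to restrain the inflammasome, had 12.99, 12.96 and 12.79 FPKM in controls and 17.12, 15.02 and 16.97 FPKM in ACD (0.34, SE 0.07, adjusted p = 0.0473). In all 3 genes every ACD value lay above every control value, which adds no support because the same test picked them. Groups did not overlap, in either direction, in 28.6% of all genes tested and in 17 of the 61 other pathway genes tested. None of the 3 passed with any 1 library left out, after TPM scaling or without a filter on low values, and of the 3 Bdnf alone passed once a trend on length and GC content was removed (0.65, adjusted p = 0.0319). Of the exon bases of Bdnf, 14.4% overlap an antisense gene at 0.0523 FPKM. The inflammasome gene Nlrp3 had a log2 fold change of 0.57 from 10 to 25 reads. Its groups did not overlap, but it did not pass (adjusted p = 0.274). Casp1 and Pycard were at 0.18, Gsdmd at 0.04 and Il18 at -0.12, and none of these passed. Il1b was too low to be tested.

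No gene passed in the other 6 lists, beside 4.34% of all genes. Among receptors outside the 10, P2ry12 was at 10.2 ± 2.69 and 10.2 ± 0.720 FPKM (log2 fold change 0.03), P2ry13 at 3.77 ± 0.843 and 3.41 ± 0.274 (-0.12) and P2ry2 at 0.402 ± 0.127 and 0.493 ± 0.0186 FPKM (0.27). Adora2a was at 0.731 ± 0.126 and 0.931 ± 0.150 FPKM (0.31), Adora2b at 4.91 ± 1.496 and 5.64 ± 0.832 (0.23) and Adora3 at 0.165 ± 0.0756 and 0.187 ± 0.0327 FPKM (0.15). Of 12 tested ectonucleotidases none passed. Nt5e, or CD73, which turns AMP into adenosine, was at 1.01 ± 0.132 and 1.01 ± 0.0902 FPKM (log2 fold change -0.005, interval -0.38 to 0.37). Entpd2, an ATPase of astrocytes, was at 4.11 ± 0.373 and 4.45 ± 0.0321 FPKM (0.12), and Entpd7, an intracellular relative, at 1.77 ± 0.192 and 1.32 ± 0.101 FPKM (-0.40, adjusted p = 0.137). Adk, the kinase that clears adenosine, was at 8.86 ± 1.14 and 9.80 ± 0.592 FPKM (0.15), and the nucleoside transporter Slc29a1 at 2.83 ± 0.0855 and 3.08 ± 0.424 FPKM (0.11). For release, the channel genes Panx1 and Gjb6 had log2 fold changes of 0.21 (adjusted p = 0.282) and 0.30 (adjusted p = 0.118), and Slc17a9, the vesicular nucleotide transporter, averaged under 0.1 FPKM and was not tested. Gnai1, a subunit of the inhibitory G protein that Adora1 uses, was at 61.1 ± 2.28 and 70.3 ± 2.84 FPKM (0.20, adjusted p = 0.124).

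**Figure D4:**
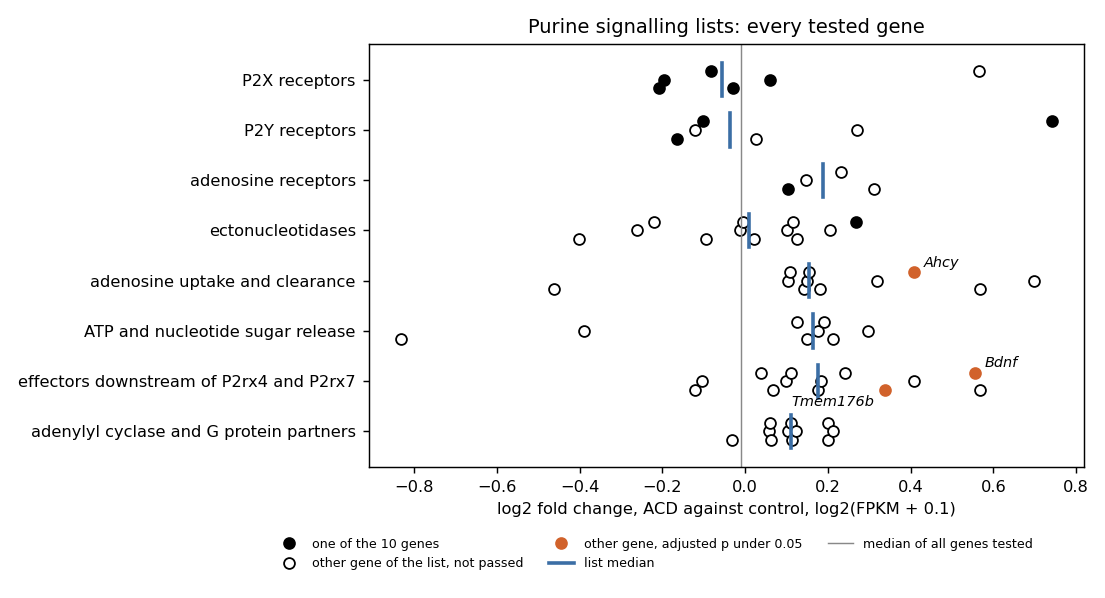
Log2 fold change of every tested gene in the 8 lists, with filled black points for the 10 genes, orange points for the 3 others that passed and blue bars for list medians. The genes that passed are Ahcy, Bdnf and Tmem176b, and none of the black points did.

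Microglial markers moved with the groups in part and are given beside P2ry6, Entpd1, P2rx4 and P2rx7, which microglia express. Of 15 homeostatic microglia genes 2 rose, beside 1.81% of all genes, and none fell, beside 2.53%. The median log2 fold change of the 15 was 0.27, beside -0.01 over all genes, and their summed FPKM was 110 to 137 in controls and 138 to 147 in ACD. Tmem119 had 8.32, 8.55 and 6.73 FPKM in controls and 10.7, 11.9 and 11.5 FPKM in ACD (log2 fold change 0.53, adjusted p = 0.0394), and Olfml3 rose by 0.57 (adjusted p = 0.0384). Sall1, a transcription factor of microglial identity, had a log2 fold change of -0.28 and did not pass (adjusted p = 0.263). Relative to the control mean, P2ry6 stood at 1.68, 1.42 and 1.89 in ACD, Entpd1 at 1.26, 1.27 and 1.09, and Tmem119 at 1.36, 1.51 and 1.46. P2rx7 stood at 1.00, 0.823 and 0.783, and P2rx4 at 1.00, 0.890 and 1.04. The microglial receptor P2ry12 stood at 1.02, 1.05 and 0.919 and P2ry13 at 0.824, 0.965 and 0.924, both overlapping with the controls. Of 9 genes of border macrophages and monocytes none passed (median 0.63, summed FPKM 19.8 to 47.6 in controls and 44.0 to 52.7 in ACD). Of 6 neutrophil genes none passed either (median 1.23, 24.6 to 110 and 94.8 to 123), beside 4.34% of all genes. All 15 microglial, 9 macrophage and 6 neutrophil genes were above 0 in every library. The part of these cell types in the values of P2ry6 and Entpd1 was not tested.

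**Figure D5:**
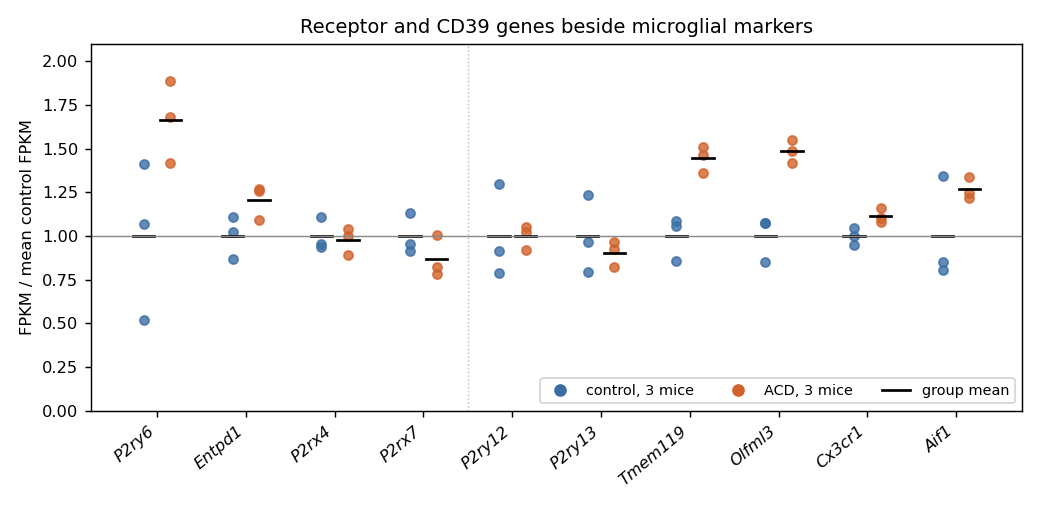
FPKM of each mouse divided by the mean control FPKM, for P2ry6, Entpd1, P2rx4 and P2rx7 (left of the dotted line) and 6 microglial genes. The ACD points of P2ry6, Tmem119, Olfml3 and Cx3cr1 lie above all control points, while those of Entpd1, P2rx4, P2rx7, P2ry12, P2ry13 and Aif1 overlap with them.

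Over the 6 libraries the protein-coding genes of at least 1 FPKM most like P2ry6 were Cyb5b (Pearson r = 0.996), Sec23a (0.993) and Marcksl1 (0.990). Those most like Entpd1 were Cmas (0.997), Ndufb9 (0.996) and Rit1 (0.996). These were the highest of many values from only 6 libraries: 180 of 12149 genes had an r of at least 0.9 with P2ry6 and 427 of 12148 with Entpd1. The likeness is in shape and not in size, since Cyb5b ranged only from 44.4 to 47.4 FPKM. None of the 6 genes named passed the test of ACD against control.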

How the data were processed

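RNA of the cervical cord was measured in 6 libraries, 1 per mouse. The authors deposited FPKM, 1 table per library. Per the submitters' processing notes, build mm10 and the tools DESeq2 1.16.1, featureCounts 1.5.0-p3 and HISAT2 2.0.5 were used, with no role stated. For the strand setting and annotation release nothing was found in these sources. Symbols matched 54409 of 54532 identifiers, and GENCODE M21 gave lengths and places. FPKM times exon length gave whole reads, within 0.05, for 96.9% of values above 0. Median ratio size factors of the deposited FPKM were equal in all 6 libraries.

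Genes averaging 0.1 FPKM or more were fitted with limma 3.58.1 (R 4.3.3; trend and robust) on log2(FPKM + 0.1), which understates changes of low genes, with Benjamini-Hochberg adjustment over 21369 genes and a two-sided threshold of 0.05. Tested on simulated data, the fit made more false calls than the threshold allows, mostly in genes with very few reads. Alternatives changed the pseudocount, filter, scaling, unit, replicate block and eBayes settings, or left out 1 library.

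The 10 genes and the lists were chosen with earlier results of these data known. Named were the 10, passing genes of the lists or else each list's smallest p, 14 pathway genes whatever their result, and the 3 genes most correlated with each of the 2 members of smallest p. Other genes, among them the cell type markers given singly, were chosen after their values were seen. Intervals and read numbers cover 3 mice a group and counting error only.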

Additional observations from a re-analysis of the deposited data

How the results depend on the processing

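None of the 10 genes passed under any of the 16 alternatives in which they were tested, and the lowest adjusted p of any was 0.123 (Adora1 without control 3). With a minimum mean of 1 FPKM, P2rx3, P2ry6 and P2ry14 were not tested. Of 157 values of the 10 under alternatives, 8 changed sign, none of them past the threshold. P2rx5 was at -0.035 after TPM scaling and -0.0919 once a trend by length and GC was taken out, and -0.0129 to 0.1328 with 1 library left out. P2ry14 was at 0.0288 without that trend and -0.2489 to 0.077 with 1 library left out, and P2rx4 at -0.0765 to 0.0438. Among other named genes P2ry12 was at -0.07 after TPM scaling. Without the trend Nt5e was at 0.0277 and Entpd2 at -0.037. With 1 library left out P2ry12 ranged from -0.127 to 0.2274, P2ry13 from -0.2721 to 0.0403, Adora2b from -0.0051 to 0.4408, Adora3 from -0.0552 to 0.3566 and Nt5e from -0.0654 to 0.0902. The order of the 10 control levels was the same after TPM scaling, and 8 of 10 kept their place without each control in turn.

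Over all genes 927 passed, 556 without a filter, 1634 with voom on recovered reads, 420 with neither trend nor robust setting, 181 with the replicate block and 192 to 736 with 1 library left out. Of the 927, 386 were higher and 541 lower. TPM scaling gave 205 higher of 900 and the fit without the trend 306 higher of 826. The balance turned to higher with a minimum mean of 1 FPKM (525 higher, 463 lower), without control 2 (319 and 296) and without control 3 (378 and 358). Of the pathway's genes 3 passed, 4 with voom on recovered reads, 2 with a pseudocount of 0.01 and 1 without the trend. The count was 0 with a pseudocount of 1, without a filter, after TPM scaling or with neither trend nor robust setting. It was also 0 with the replicate block or with any 1 library left out. The cause was not tested. Replicate numbers are shared by the groups, but same-numbered libraries did not deviate together (r = -0.028, 0.015 and 0.003 across genes), and 1 of 6 libraries correlated best with its own number. Median ratio scaling changed none of these counts, because the size factors were equal.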
